A study of Rattus norvegicus with 8 samples.

Results

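The genes described here are 9 rat genes of renal glucose and fructose handling: the sodium-coupled hexose transporters Slc5a2, Slc5a1 and Slc5a10, the facilitative glucose carriers Slc2a2 and Slc2a1, the gluconeogenic enzymes Pck1, Fbp1 and G6pc1, and the fructose-phosphorylating enzyme Khk. They were listed by their role, with earlier results of these data known. Each was found on the array through the RefSeq accession of its probes. Of the 14737 genes with a named probe, these 9 accounted for 10 probes, 2 of them for G6pc1 and 1 for each other gene. All 10 probes were well above background on 8 of 8 arrays, so no member was lost to the filter on dim probes.

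Gene expression was compared between 4 male and 4 female adult RCCHanTMWIST rats, outbred animals for which no treatment is given and which were fed chow without restriction. Total RNA of a cortical kidney slice from each rat was labelled with Cy3 and hybridized to its own array, and the 8 hybridizations shared 1 slide, whose rows each held 2 males and 2 females. The labels give the age only as adult and give neither the oestrous stage nor the hour at which the kidneys were taken. In whole slices, fewer cells of a type and less RNA per cell cannot be told apart.

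The kidney filters the glucose of the blood and takes almost all of it back in the proximal tubule, where SGLT2 (Slc5a2) works in the early segments and SGLT1 (Slc5a1) in the late straight segment. Glucose then leaves through the basolateral carriers GLUT2 (Slc2a2) and GLUT1 (Slc2a1). Proximal tubule cells also make new glucose, mainly from lactate, glutamine and glycerol, by a pathway whose controlled steps are run by PEPCK (Pck1), fructose bisphosphatase (Fbp1) and glucose-6-phosphatase (G6pc1), and they break down fructose beginning with ketohexokinase (Khk).

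Slc5a10 was higher in females and G6pc1 was higher in males, and the other 7 genes did not pass the test. Every value below is the log2 signal of a probe relative to the 75th percentile of its own array, every difference is male minus female on that log2 scale, and a difference passed when limma's p, adjusted by the Benjamini-Hochberg method over 23425 probes, was below 0.05. Thus 2 of 9 members (22.2%) passed, beside 9.2% of all 11827 tested named genes at their brightest probe (4.32% higher in males and 4.88% higher in females). Only Slc5a10 also reached a 2-fold difference, as did 2.12% of the named genes. In 4 of 9 members (44.4%) the 4 males and the 4 females did not overlap, beside 19.6% of the named genes. The males lay higher in 2 of them, Pck1 and G6pc1 (8.79% of the named genes), and the females in the other 2, Slc5a10 and Slc5a2 (10.8%). The median difference of the 9 members was -0.13, against -0.02 for all named genes. It is the value of Slc5a2, and it was -0.01 after quantile normalization and with the log2 values of the authors. With 9 members, chosen with earlier results of these data known, these shares describe the genes listed and no more.

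**Figure D1:**
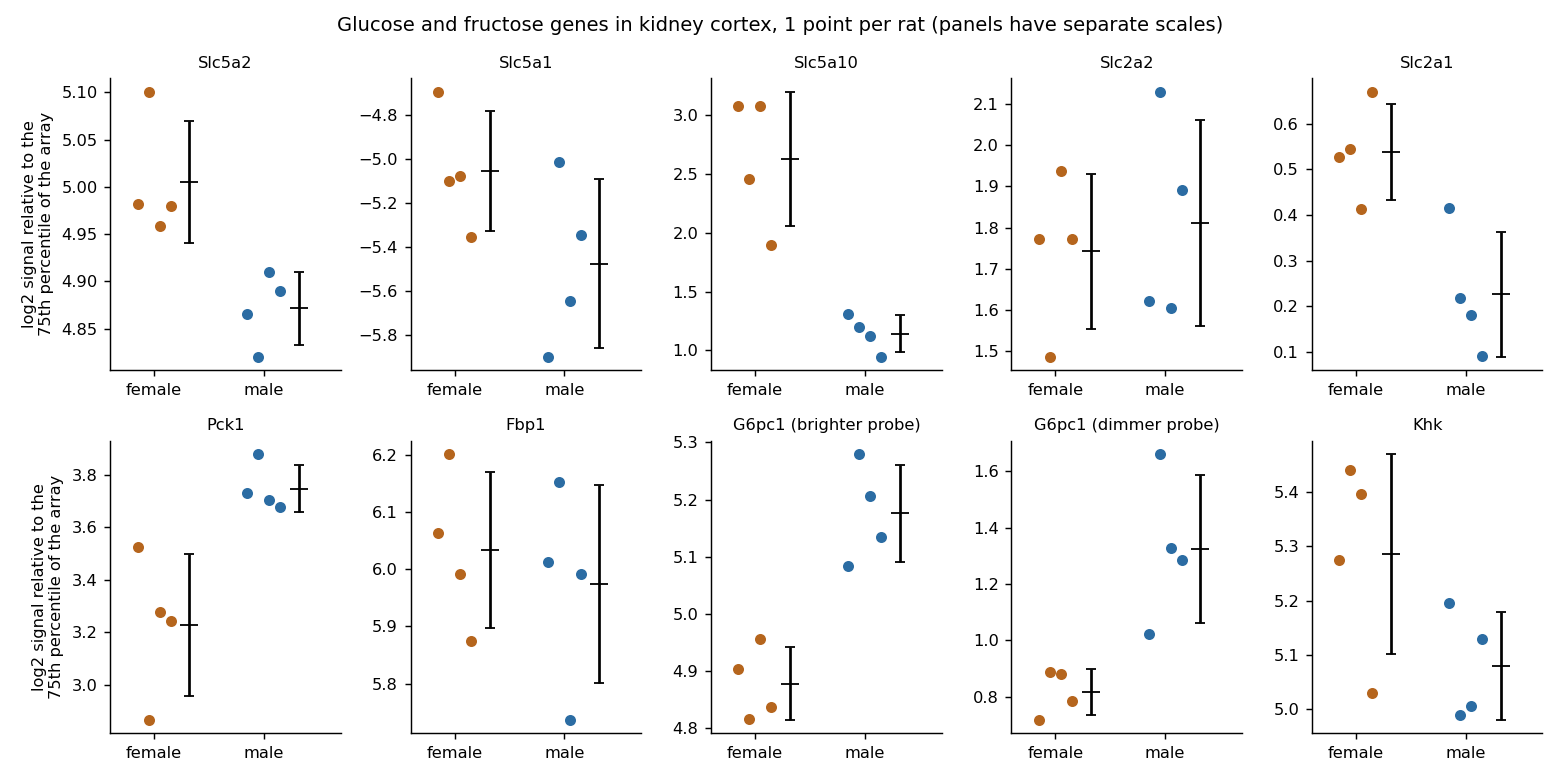
Log2 signal relative to the 75th percentile of the array (vertical axes, a separate scale in each panel) for the 10 probes in 4 females and 4 males, 1 point per rat, with the mean and SD in black. Slc5a10, Slc5a2, Pck1 and both G6pc1 probes show no overlap between the sexes, and the Slc5a10 means are 2.63 in females and 1.14 in males.

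Among the sodium-coupled transporters, Slc5a10 (SGLT5), which carries mannose and fructose, differed most between the sexes. Its values in females 1 to 4 were 3.08, 2.46, 3.08 and 1.90, and in males 1 to 4 they were 1.31, 1.20, 1.12 and 0.95. The lowest female thus lay 0.584 above the highest male, and the females were spread more widely (SD 0.57, n = 4) than the males (SD 0.154, n = 4). The difference was -1.49 (SE 0.256, 95% confidence interval -2.07 to -0.90), that is 2.80-fold higher in females, with an adjusted p of 0.0122 in limma. The exact permutation test, two-sided over 70 assignments, gave 0.0286, the smallest p that 4 against 4 allows. The difference was larger in size than that of 98.7% of the tested probes.

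Female replicate 4 had the lowest Slc5a10 signal of its sex, and without it the difference was -1.73. The markers of the proximal tubule S3 segment had a summed signal, relative to the 75th percentile of the array, of 109 to 159 in females and 99.9 to 110 in males, and the sexes overlapped. Of 7 S3 markers tested, the organic anion transporter Slc22a7 (-5.12, SE 0.325, adjusted p = 0.000237 in limma) and the amino acid transporter Slc7a12 (-4.57, SE 0.367, adjusted p = 0.000531) were higher in females. The other 5 did not pass, at -0.90 for Slc7a13, -0.27 for Slc3a1, -0.16 for Ggt1, -0.06 for Atp11a and -0.02 for Acy3. At Slc7a13 the sexes did not overlap, and at Slc3a1, Ggt1, Atp11a and Acy3 they did. Female replicate 4 was the lowest female at all 7 of these markers, those that did not pass included. It was at 0.13 for Slc22a7, where the other females lay between 1.28 and 1.58. For Slc7a12 it was at 1.25, where the other females lay between 2.22 and 3.04. The part of S3 cells in the Slc5a10 difference was not tested.

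The 250 bases before the RefSeq start of Slc5a10 (GRCr8, chr10:46898461-46898710, minus strand) are shown because this was the member with the widest difference. None of the 7 motifs searched on both strands of the member windows, TTACGTCA, TGACGTCA, TTCCTNGAA, TTCNNNGAA, GTTAATNAT, TATAAA and TATTTAA, occurred in this window, so no letter is in capitals. The sequence reads 5′ to 3′ on the strand of the gene.
Slc5a10: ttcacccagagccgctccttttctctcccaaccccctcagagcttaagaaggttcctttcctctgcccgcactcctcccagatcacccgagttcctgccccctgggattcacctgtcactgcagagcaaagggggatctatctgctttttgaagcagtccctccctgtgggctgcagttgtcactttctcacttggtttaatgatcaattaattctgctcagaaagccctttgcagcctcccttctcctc

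Slc5a2 (SGLT2), the high-capacity glucose transporter of the early proximal tubule, had a signal above that of 98.9% of the tested probes. Its values in females 1 to 4 were 4.98, 5.10, 4.96 and 4.98, and in males they were 4.87, 4.82, 4.91 and 4.89. The sexes did not overlap, by a gap of 0.049, and the spread within a sex was among the smallest on the array (SD 0.053, below that of all but 2.41% of the probes). The difference of -0.13 (SE 0.0629, 95% confidence interval -0.28 to 0.01) did not pass (adjusted p = 0.225), and the exact permutation test gave 0.0286. The brightest 1% of the tested probes, 234 in number, which Slc5a2 narrowly missed, had a median difference of the same size, -0.13, under this scaling and -0.04 after quantile normalization. Fbp1, Khk and the brighter G6pc1 probe were among these 234. After quantile normalization the Slc5a2 difference was -0.01 and the sexes overlapped (exact permutation p = 0.914). The interval excludes a change of Slc5a2 by 2-fold in either direction.

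Slc5a1 (SGLT1), the high-affinity transporter downstream of SGLT2, gave a dim signal, with only 25.3% of the tested probes dimmer. Its values were -4.69, -5.10, -5.08 and -5.35 in females 1 to 4 and -5.90, -5.01, -5.64 and -5.35 in males 1 to 4. Male replicate 2 lay above 3 of the 4 females. The difference of -0.42 (SE 0.208, 95% confidence interval -0.90 to 0.05) did not pass (adjusted p = 0.246), and the exact permutation test gave 0.2. Within each array, the Slc5a1 value minus the Slc5a2 value was -10.1 ± 0.285 in females and -10.3 ± 0.408 in males (SD, n = 4), a difference of -0.29 (exact permutation p = 0.257, and 0.257 after adjustment over 2 such ratios). This ratio compares the sexes and does not rank the genes, since each probe has its own brightness.

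The basolateral carriers did not pass the test. Slc2a2 (GLUT2), the low-affinity carrier of the early proximal tubule, was at 1.77, 1.49, 1.94 and 1.77 in females and at 1.62, 2.13, 1.60 and 1.89 in males. The highest and the second lowest of the 8 values were both male, and the difference was 0.07 (SE 0.144, 95% confidence interval -0.26 to 0.40, adjusted p = 0.808 in limma, exact permutation p = 0.686). Without female replicate 2 it was -0.02 and without male replicate 2 it was -0.04.

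Slc2a1 (GLUT1), a carrier of many cell types and of the later nephron, was measured by 10 spots per array. It was at 0.53, 0.55, 0.41 and 0.67 in females and at 0.42, 0.22, 0.18 and 0.09 in males, so that only male replicate 1 reached the range of the females. The difference of -0.31 (SE 0.0913, 95% confidence interval -0.52 to -0.10) missed the threshold (adjusted p = 0.0756, exact permutation p = 0.0571). With an intensity trend and a robust prior in limma it passed (adjusted p = 0.0439). The summed markers of the thick ascending limb (61.8 to 70.3 in females, 52.7 to 59.4 in males), of podocytes (12.2 to 13.0 and 10.5 to 11.0) and of the endothelium (27.85 to 30.4 and 25.5 to 27.75) were each lower in every male than in every female. Their part in the Slc2a1 values was not tested. Slc2a1 minus Slc2a2 within each array was -1.20 ± 0.249 in females and -1.59 ± 0.329 in males (SD, n = 4), a difference of -0.38 (exact permutation p = 0.171, adjusted p = 0.257).

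Of the 3 gluconeogenic enzymes, the first and the last of the pathway had all 4 males above all 4 females, and the middle one did not. Pck1, the cytosolic PEP carboxykinase that turns oxaloacetate into phosphoenolpyruvate, was at 3.53, 2.87, 3.28 and 3.24 in females and at 3.73, 3.88, 3.70 and 3.68 in males. The lowest male lay 0.151 above the highest female, and female replicate 2 was lowest of all. The difference was 0.52 (SE 0.133, 95% confidence interval 0.21 to 0.82), a fold of 1.43, and its adjusted p of 0.0511 lay just above the threshold (exact permutation p = 0.0286). Over 18 other settings the difference lay between 0.40 and 0.62 and passed in 5 of them. One of the 5 was the fit without female replicate 1 (0.62, adjusted p = 0.0313), while without female replicate 2 the difference was 0.40 (adjusted p = 0.0711).

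Fbp1, which removes a phosphate from fructose bisphosphate, had the brightest probe of the set. It was at 6.06, 6.20, 5.99 and 5.88 in females and at 6.01, 6.15, 5.74 and 5.99 in males, and the sexes overlapped over nearly their whole ranges. The difference of -0.06 (SE 0.108, 95% confidence interval -0.31 to 0.19) did not pass (adjusted p = 0.775, exact permutation p = 0.629). It was 0.05 after quantile normalization and 0.02 without male replicate 3.

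G6pc1, the catalytic subunit of glucose-6-phosphatase that releases free glucose, was higher in males at both of its probes. The brighter probe was at 4.90, 4.82, 4.96 and 4.84 in females and at 5.08, 5.28, 5.21 and 5.13 in males. The difference was 0.30 (SE 0.0704, 95% confidence interval 0.14 to 0.46), a fold of 1.23, with an adjusted p of 0.0401 in limma and an exact permutation p of 0.0286. After quantile normalization the difference at this probe was 0.39 (adjusted p = 0.0308 in limma). The dimmer probe was at 0.72, 0.89, 0.88 and 0.78 in females and at 1.02, 1.66, 1.33 and 1.28 in males. Its difference was 0.51 (SE 0.128, 95% confidence interval 0.21 to 0.80), a fold of 1.42, with an adjusted p of 0.0492 and an exact permutation p of 0.0286. At neither probe did the sexes overlap, and male replicate 2 was the highest rat at both.

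The G6pc1 call did not survive the loss of any single array. At the brighter probe the difference stayed between 0.26 and 0.33 over the 8 fits that left out 1 array, but the adjusted p lay between 0.054 and 0.102 in all of them. At the dimmer probe it passed in 1 of these 8 fits, the one without male replicate 1 (0.61, adjusted p = 0.0264). Within the slide rows the brighter probe differed by 0.21 and 0.38, and Pck1 by 0.44 and 0.59, with 2 rats of each sex in each row.

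The 250 bases before the starts of Pck1 (GRCr8, chr3:182348322-182348571, plus strand) and G6pc1 (GRCr8, chr10:86807409-86807658, plus strand) are shown because both genes had all males above all females. Capitals mark matches to the motifs spelled out above for Slc5a10. In Pck1 these are TTACGTCA, known as the cAMP response element of this gene, beginning 93 bases before the start, and TATTTAA at 31 bases. In G6pc1 they are GTTAATNAT at 234 bases, and TATAAA at 41 bases. The sequences read 5′ to 3′.
Pck1: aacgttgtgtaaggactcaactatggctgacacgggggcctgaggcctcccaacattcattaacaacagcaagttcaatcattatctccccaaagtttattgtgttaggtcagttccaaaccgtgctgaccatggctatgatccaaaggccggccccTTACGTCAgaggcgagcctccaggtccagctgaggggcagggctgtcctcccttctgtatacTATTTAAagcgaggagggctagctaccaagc
G6pc1: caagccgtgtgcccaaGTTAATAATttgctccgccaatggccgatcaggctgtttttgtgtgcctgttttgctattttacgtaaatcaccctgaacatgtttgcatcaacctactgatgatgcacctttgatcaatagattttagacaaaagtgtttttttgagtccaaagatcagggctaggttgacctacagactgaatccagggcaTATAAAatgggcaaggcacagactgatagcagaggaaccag

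Of 33469 rat promoter windows of the same length, TTACGTCA occurred in 0.75%, TATTTAA in 4.16%, GTTAATNAT in 0.666% and TATAAA in 12.9%. The other motifs searched, TGACGTCA (1.59% of windows), TTCCTNGAA (1.47%), which holds both forms of the BCL6 site that the study considered, and TTCNNNGAA (7.67%), which contains it, were in none of the 9 member windows. The motifs were chosen after the windows had been read, and a match describes letters in a window, not a bound site.

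Khk, which phosphorylates fructose and so commits it to breakdown, was at 5.27, 5.44, 5.40 and 5.03 in females and at 5.20, 4.99, 5.004 and 5.13 in males. Female replicate 4 fell within the range of the males and the other females lay above them. The difference of -0.21 (SE 0.104, 95% confidence interval -0.45 to 0.03) did not pass (adjusted p = 0.26, exact permutation p = 0.114). It was -0.10 after quantile normalization. Of the fructose transporter Slc5a10 and the fructose kinase Khk, only Slc5a10 thus passed.

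**Figure D2:**
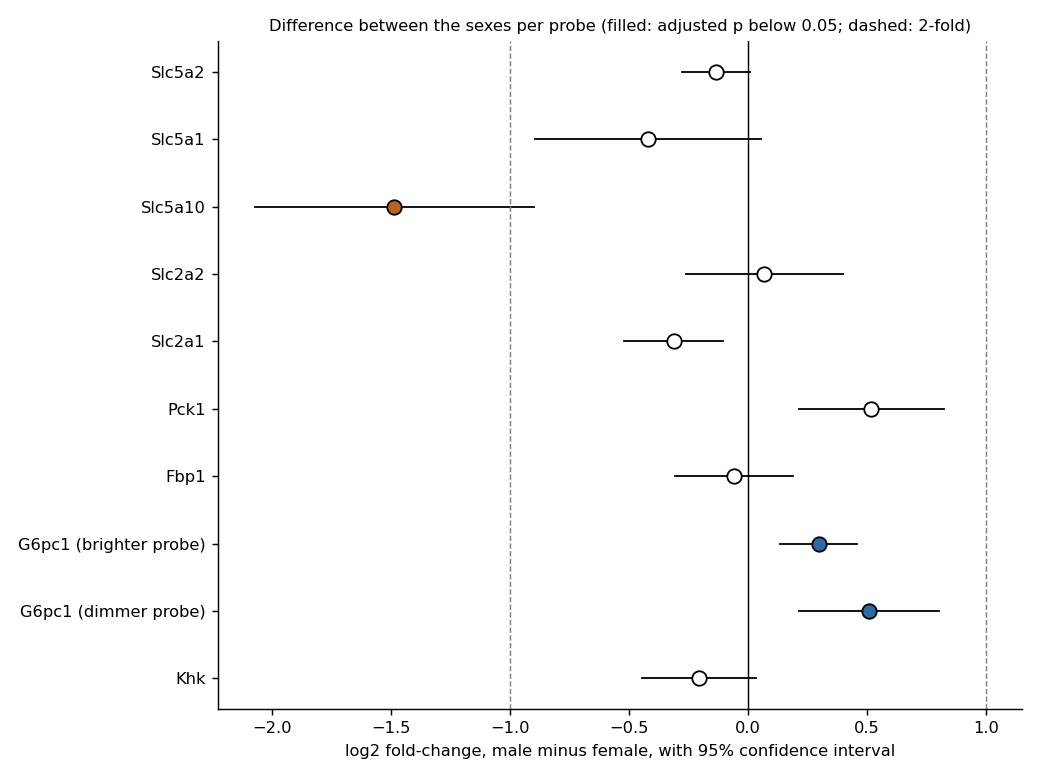
Log2 fold-change, male minus female, of the 10 probes (circles) with 95% confidence intervals (lines), filled where limma's adjusted p was below 0.05 and with dashed lines at 2-fold. Only the Slc5a10 circle, at -1.49, lies beyond 2-fold, and the filled G6pc1 circles lie at 0.30 and 0.51.

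**Figure D3:**
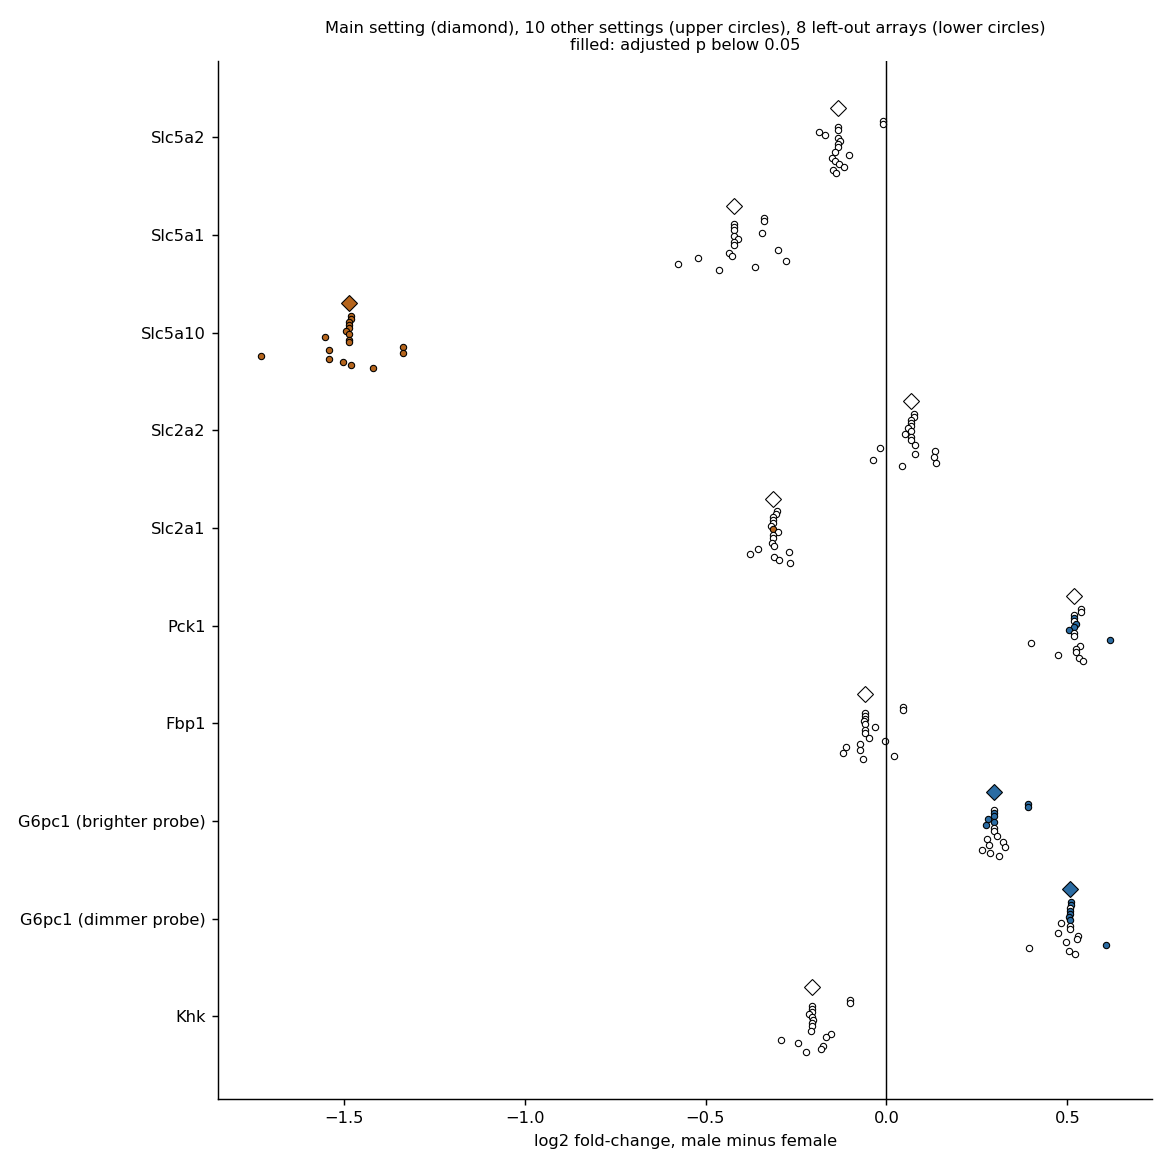
Log2 fold-change, male minus female, of the 10 probes in the main setting (diamonds), in 10 other settings (upper circles) and in the 8 fits that left out 1 array (lower circles), filled where the adjusted p was below 0.05. Slc5a10 is filled throughout, between -1.73 and -1.34, whereas Pck1 and G6pc1 keep a positive difference and change between filled and open.

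Genes around these 9 were taken from 5 lists of glucose and fructose handling, also drawn up with earlier results of these data known. The lists hold 118 other genes. Of these, 109 were tested and 17 (15.6%) passed, 7 higher in males and 10 higher in females, with 2 at 2-fold or more and a median difference of -0.02. Of all named genes 9.2% passed, made up of 4.32% in favour of males and 4.88% in favour of females. Under quantile normalization, and with the log2 values of the authors, 10 genes of the lists were higher in males and 9 in females. Of the 10 genes tested in the list of hexose transporters, which also holds related carriers, 1 was higher in females, the myo-inositol transporter Slc2a13. Of the 37 enzymes of gluconeogenesis and glycolysis, 4 were higher in females and none in males. Of the 12 genes of fructose, polyol and mannose metabolism, 2 were higher in males. Of the 21 genes of substrate supply and ammoniagenesis, 2 were higher in males and 4 in females, and of the 29 regulators, 3 were higher in males and 1 in females. Of the 17 genes, 7, among them Ppard, Prkaa2, Slc25a1, Gpt, Pck2 and Eno3, passed in each of the 8 fits that left out 1 array. The other 10 missed the threshold in 2 to 8 of those fits, with no change of sign.

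**Figure D4:**
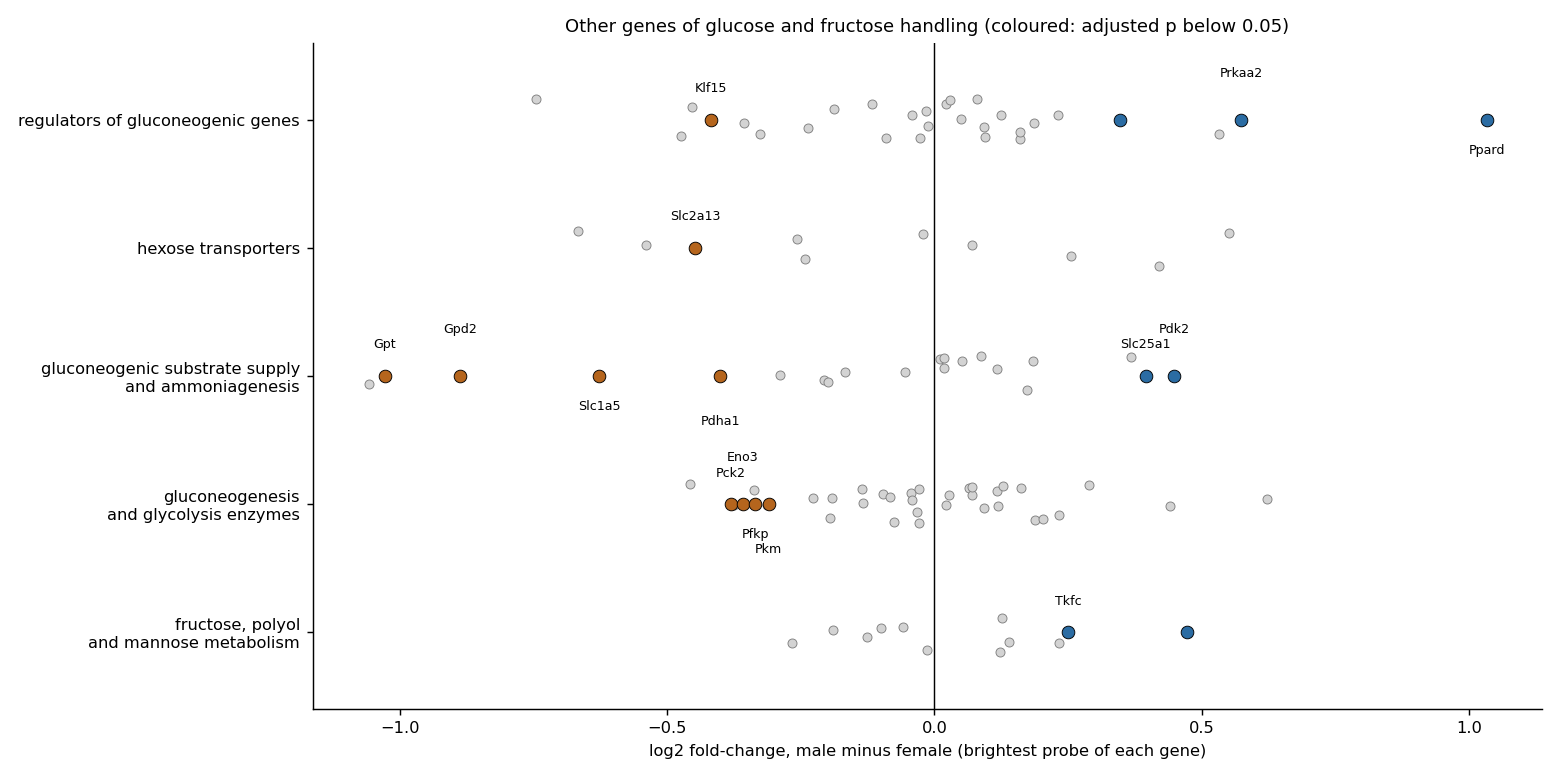
Log2 fold-change, male minus female, of the 109 tested genes of the 5 wider lists (rows), at the brightest probe of each gene, coloured where the adjusted p was below 0.05, with the names of those described in the text. Coloured points to the right are higher in males (7 genes, up to Ppard at 1.03) and to the left higher in females (10 genes, down to Gpt at -1.03).

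Among the regulators, Ppard, a nuclear receptor that drives fatty acid oxidation, was higher in males. Its values were -2.94, -2.71, -2.73 and -2.54 in females and -1.68, -1.73, -1.74 and -1.65 in males. All males lay well above all females, and the difference was 1.03 (SE 0.0892, adjusted p = 0.000743 in limma). A second Ppard probe differed by less, 0.46 (adjusted p = 0.0252). Prkaa2, a catalytic subunit of the energy sensor AMPK, was also higher in males (0.57, SE 0.0758, adjusted p = 0.00431), with -0.72 to -0.46 in females and -0.05 to 0.03 in males. Klf15, a transcription factor of amino acid breakdown and gluconeogenesis, was higher in females (-0.42, adjusted p = 0.0266).

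In substrate supply, Gpt, an alanine aminotransferase that turns alanine into pyruvate, was higher in females. It was at -1.19, -1.55, -1.31 and -1.86 in females and at -2.40, -2.60, -2.54 and -2.50 in males, a difference of -1.03 (SE 0.142, adjusted p = 0.00511) or 2.04-fold. Gpd2, the mitochondrial glycerol phosphate dehydrogenase, was at -0.46, -0.47, -0.75 and -1.24 in females and between -1.69 and -1.50 in males. Its difference was -0.89 (SE 0.168, adjusted p = 0.018), and a second probe gave -0.98 (adjusted p = 0.00918). The glutamine carrier Slc1a5 (-0.63, adjusted p = 0.0378) and the pyruvate dehydrogenase subunit Pdha1 (-0.40) were higher in females as well. Higher in males were Pdk2, a kinase that inhibits pyruvate dehydrogenase (0.45, adjusted p = 0.033), and the mitochondrial citrate carrier Slc25a1 (0.40, adjusted p = 0.0134). Of the other genes of glycerol use, named after their values were seen, Gpd1 (-0.17, adjusted p = 0.305 in limma) and Gk (-0.21, adjusted p = 0.41) did not pass.

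The 4 enzymes of gluconeogenesis and glycolysis that passed were Pck2, Eno3, Pfkp and Pkm. Pck2, the mitochondrial counterpart of Pck1, was at 0.92, 0.86, 0.83 and 0.89 in females and at 0.44, 0.49, 0.59 and 0.44 in males, a difference of -0.38 (SE 0.0637, adjusted p = 0.0108). The cytosolic and the mitochondrial PEP carboxykinase therefore had differences of opposite sign, 0.52 for Pck1, which missed the threshold, and -0.38 for Pck2, which passed it. Eno3 (-0.36) is an enolase, and Pfkp (-0.34), a phosphofructokinase, and Pkm (-0.31), a pyruvate kinase, act in glycolysis.

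In fructose breakdown, Tkfc, the triokinase that acts downstream of Khk, was 0.25 higher in males (adjusted p = 0.0422). The one gene in the list of hexose transporters that passed was Slc2a13, a myo-inositol transporter (-0.45, adjusted p = 0.0496). Of the partners of the members that did not pass, named after their values were seen, the fructose carrier Slc2a5 differed by 0.42 (adjusted p = 0.273) and the glucose-6-phosphate translocator Slc37a4 by 0.23 (adjusted p = 0.17).

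Female replicate 4 was the lowest of the 4 females in 7 of the 11 genes higher in females, namely Slc5a10 and 6 of the 10 genes from the wider lists. The remaining 4 genes had female replicate 1, 2 or 3 lowest. In each of those 7 genes, female replicate 4 still lay above every male. At Slc2a13 it was at -3.28, where the highest male was at -3.32.

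**Figure D5:**
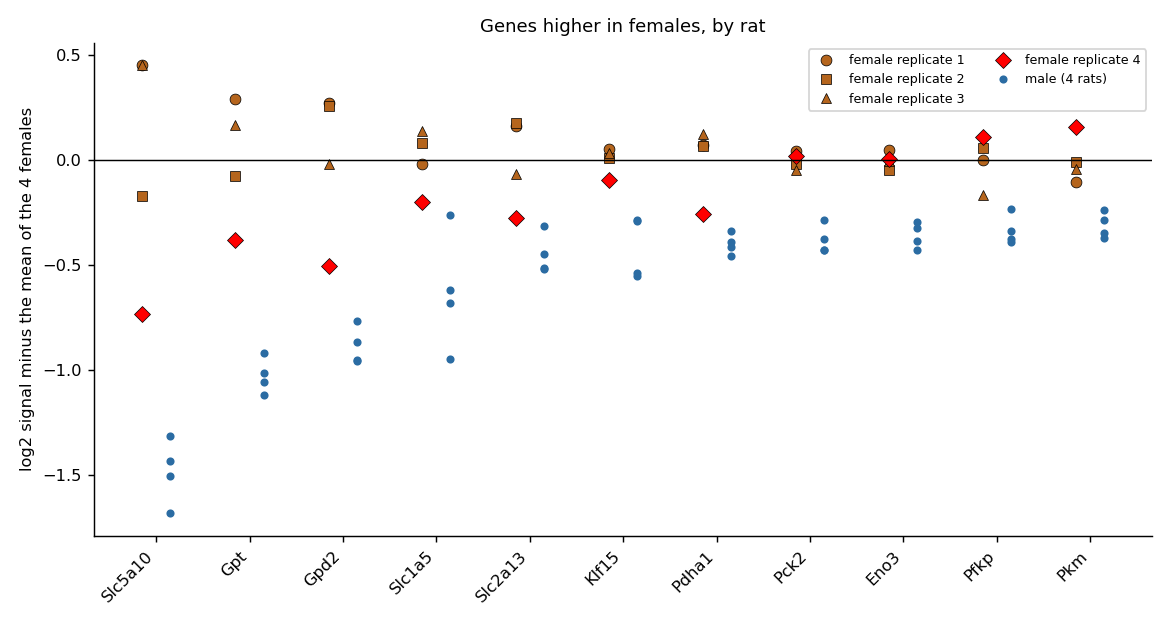
Log2 signal minus the mean of the 4 females (vertical axis) for the 11 genes higher in females, with a symbol for each female rat and dots for the 4 males. Female replicate 4, in red, is the lowest female in 7 of the 11 genes, and the Slc5a10 males lie farthest below the females.

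The genes whose signal followed each member most closely across the 8 rats, after the mean of each sex was subtracted, were sought among 13149 named probes. For Slc5a10 these were H2ap (Pearson's r = 0.983), Upp2 (0.982) and Defb51 (0.979). For Pck1 they included Mfap3 (0.982) and Csf2ra (0.97), and for G6pc1 they were Bin3 (0.973), Or56b2b (0.972) and Gnmt (0.965). For Slc5a2 they were Zfp354a (0.978), Bloc1s4 (0.971) and Nupr1 (0.964), and among those of Slc5a1 was Slc12a8 (0.957). For the carriers they were Fos (0.989), Abcg3 (0.98) and Gatm (0.966) with Slc2a2, and Rabep1 (0.964), Tbc1d5 (0.957) and Camkv (0.957) with Slc2a1. For Fbp1 they were Sar1a (0.996), Fth1 (0.983) and Napsa (0.983), and for Khk they were Slc22a2 (0.977), Rps2 (0.97) and Magi1 (0.968). These are the highest of 13149 values over 8 arrays that share a slide and a scaling, and they describe these rats without a test. Pck1 and G6pc1 had no gene in common among these. The Slc5a10 deviations from the sex mean ran from -0.73 to 0.45 in females and from -0.20 to 0.17 in males. Its r values thus rest mainly on the females.

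The tissue was checked by markers. All 10 markers of proximal tubule S1 and S2 were tested, with summed signals of 145 to 159 in females and 155 to 162 in males, and 1 of them, the endocytic receptor Cubn, passed (-0.59, adjusted p = 0.00452, higher in females). Of the markers of the adrenal cortex, Cyp11b1, Star and Mc2r were not well above background on 4 arrays. Cyp21a1 (-2.97 in females and -3.40 in males) and Cyp17a1 (-4.53 and -4.80) were well above it and did not pass. The 5 markers of the thick ascending limb held 1 that passed, Cldn16 (-0.62), and the 5 of podocytes held 1, Podxl (-0.27), both higher in females. No marker of the collecting duct, distal convoluted tubule, endothelium, immune cells, stroma, adipocytes or red blood cells passed. The signal intensity at the 75th percentile was 5025 to 5944 on the female arrays and 5685 to 6547 on the male arrays, and no spot was saturated.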

How the data were processed

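The authors deposited, for 8 arrays, the background-subtracted signal intensity of each spot from Feature Extraction 10.7.3.1, without normalization between arrays, and a table of log2 values, which the authors had normalized to the same distribution on every array. The submitters' processing notes name limma 3.8.2. From the intensities, spots marked as outliers were dropped, each log2 signal was set relative to the 75th percentile of its array (control spots excluded) and replicate spots were averaged per probe. The 23425 probes well above background on 4 or more of 8 arrays were fitted with limma 3.58.1 (lmFit and eBayes, male minus female, no covariate) in R 4.3.3 (tables read with version 1.17.8 of data.table), and p was adjusted by Benjamini-Hochberg over all of them. The fit was tested on simulated data with planted differences larger than that of any member. That test does not cover differences of the members' size. A two-sided exact permutation test over the 70 ways to divide 8 rats into 4 and 4 was run for single probes. Samples were grouped by the sex in their labels. Replicates are separate animals.

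Probes were named through their RefSeq accession, and the brightest probe of a gene led. Promoter windows came from RefSeq (GRCr8), with 9 of 9 members matched, and plots from Python 3.11.15 with matplotlib 3.10.9. The members and lists were chosen with earlier results of these data known. Named were all members, the passing genes of the wider lists (at most the 5 largest differences in each direction, with values, and the rest by count; the rest are named here after their values were seen), and the 3 genes most like each member. The share of probes well above background was 73.8% to 79.1% per array, and 4 arrays per sex limit the precision. Alternatives were the authors' log2 values, quantile normalization, normexp background correction (offset 50), outlier spots kept, a filter on all 8 arrays or none, array weights, a robust prior with an intensity trend, slide row or replicate number as a block, another probe, and leaving out each array. Counts of overlap and the median of the members by scaling, and the brightest probes, were added after seeing the data. Some genes that the rule names are not reported here. Real-time PCR and luciferase assays were not analysed here.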

Additional observations from a re-analysis of the deposited data

Results flagged for a closer look

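Of 54 groups of 4 rats tested for a value far from the others, 3 held one, and chance flags about 1 in 20. Slc5a2 in female replicate 2 was at 5.10, where the other females lay between 4.96 and 4.98. Tkfc in female replicate 1 was at 0.0908, where the others lay between 0.00 and 0.01. Pdha1 in female replicate 4 was at 3.98, where the others lay between 4.30 and 4.36.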

How the results depend on the processing

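Slc5a10 passed with the same direction under all 18 alternatives, between -1.73 and -1.34. Fbp1 changed sign with quantile normalization (0.0469), with the authors' log2 values (0.0467) and without male replicate 3, over a leave-one-out range of -0.119 to 0.0197, and Slc2a2 ranged from -0.0375 to 0.138 and was negative without female replicate 2 (-0.017) or male replicate 2. G6pc1, at 0.297, no longer passed with no filter on dim probes (adjusted p = 0.0752), with the slide row as a block (0.0506) or with 1 array left out (0.263 to 0.328). Pck1 passed with the filter on all 8 arrays (0.519, adjusted p = 0.0438), normexp (0.523, 0.0353), an intensity trend (0.519, 0.0264) and array weights (0.504, 0.0447), and ranged from 0.399 to 0.618 with 1 array left out. Slc2a1 passed with the intensity trend (-0.313). Members higher in males thus numbered 2 under these 4 settings, and 0 with no filter, with either block and in 7 of the 8 leave-one-out fits (range 0 to 1), and members higher in females numbered 2 with the trend. In the wider lists, no filter left 4 genes with higher signal in males and 4 in females, the row block 6 in females, quantile normalization or the authors' log2 values 10 in males and 9 in females, the intensity trend 10 and 12, and the fits with 1 array left out 4 to 6 in males and 3 to 8 in females. Over all probes, 1889 passed, 1194 with no filter and 1012 to 1544 with 1 array left out. The cause of these shifts was not tested.

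The main fit treated the rats as unpaired. The deviations of same-numbered rats correlated at 0.126, 0.043, -0.008 and 0.116 over 23425 probes, and 5 of 8 rats correlated best with their own number. These values do not settle whether the replicate numbers pair the rats. With the replicate block 1030 probes passed, no member was higher in males (0; G6pc1 0.297, adjusted p = 0.0988), and in the wider lists 3 passing genes were higher in males and 4 in females. The transporters had 1 named probe each, so the ratios with other probe pairs were not run.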
